A study of Rattus norvegicus with 60 samples.

Results

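Nfkbia, Nfkbiz, Tnfaip3, Tnfaip2, Tnfaip6, Relb, Nfkb2, Birc3, Icam1 and Vcam1 are target genes of NF-kB, most of them feedback regulators of its signalling and 2 of them adhesion molecules. They were chosen by symbol, with earlier results of these data known. All 10 were found among the 30045 rows of the lung count table, and all 10 passed the filter on low counts, as did 15995 rows in all. After MWCNT inhalation the members did not move as a block. Birc3, Nfkb2, Relb and Tnfaip2 were called higher in 3 or more of the 5 exposure sets, and Nfkbiz and Vcam1 in 2. Nfkbia, Tnfaip3, Tnfaip6 and Icam1 passed the test in none. Some of these calls were not firm. Those of the 22.5 mg/m3 set were all lost with that set fitted alone. The Relb call at 180 mg/m3 was lost in 6 of the 11 fits that left out 1 rat.

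The animals were male Fischer 344 rats, 3 months of age, housed 3 to a cage and with no genetic modification named. They were kept in filtered air or in an aerosol of multi-walled carbon nanotubes (MWCNT, fibrous particles of nested carbon tubes) in a whole-body chamber, 6 hours a day for 3 days, and a piece of lung was taken 1 day later for stranded mRNA sequencing. Each of the 5 cumulative doses was a set with its own exposed rats and its own air rats: set 180 (180 mg/m3), set 090 (90), set 045 (45), set 022 (22.5) and set 011 (11.25). The 7 libraries labelled as outliers were left out, which left 53 libraries: 6 per group, except 5 in MWCNT_180 and in MWCNT_011, 4 in MWCNT_090 and 3 in air_045. Library totals ran from 8.1 to 16.2 in units of 1000000 counts, with means of 11.1 in air_180 and 9.39 in MWCNT_180. Of the libraries left out, 3 held a liver profile, with liver markers at 19.95% of counts or more, against at most 0.0367% in any library used. Dose and exposure run cannot be told apart between sets, so the main effect of each set was taken against its own air rats. Comparisons across sets, such as the dose slope, are over doses and runs at once. All air rats as a single control were used as an alternative.

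NF-kB is a family of paired transcription factors that IkB proteins hold back in resting cells. Signals from TNF, IL-1 or Toll-like receptors activate the IKK kinases, which send IkB for destruction, and a slower noncanonical branch processes the Nfkb2 precursor to a subunit that pairs with RelB. Among the genes that NF-kB switches on are its own inhibitors, so the pathway is known for limiting itself, and the endothelial adhesion molecules that hold passing leukocytes.

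Promoter windows from RefSeq (GRCr8) were searched because the members are grouped as NF-kB targets. Windows were given for 8 of the 10 members, not for Relb and Birc3. The kB consensus motif searched was GGGRNNYYCC, 10 bases long, where R is A or G, Y is C or T and N is any base. It was looked for on both strands in the 250 bases before the start. At least 1 match was found in 5 of the 8, against 6.33% of all 33469 windows, and at least 2 in 0.965% of all windows. The stretches around these matches are shown 5′ to 3′ on the gene's own strand, with the matches in capitals.
Nfkbia, chr6:78597073-78597128, minus strand: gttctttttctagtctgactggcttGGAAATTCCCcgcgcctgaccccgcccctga
Nfkbiz, chr11:58251683-58251720, plus strand: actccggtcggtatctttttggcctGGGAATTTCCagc
Nfkb2, chr1:255108329-255108373, plus strand: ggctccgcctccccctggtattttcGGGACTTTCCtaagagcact
Tnfaip3, chr1:15544012-15544071, minus strand: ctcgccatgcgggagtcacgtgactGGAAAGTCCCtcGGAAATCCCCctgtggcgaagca
Vcam1, chr2:206742842-206742901, minus strand: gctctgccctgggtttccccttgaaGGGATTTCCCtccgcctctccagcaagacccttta
The match of Vcam1 was read on both strands, and Tnfaip3 had another match farther upstream. No full match lay in the windows of Tnfaip2, Tnfaip6 and Icam1, which says only that those letters are not there. The Icam1 window holds tggaaattcc, which differs from the motif in its first base alone. Such near matches were not counted in any window. A match is a description of the letters and was not read as a bound site. Genes with a full match and genes without one were both among those that rose (Nfkb2 and Tnfaip2) and among those that passed the test in no set (Nfkbia and Icam1).

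Levels are given as counts for each 1000000 counts of the library (CPM). A gene was called at an adjusted p under 0.05 in edgeR's quasi-likelihood test with Benjamini-Hochberg adjustment over all 15995 genes, and the log2 fold changes, their standard errors (SE) and the adjusted p-values below come from that fit. The rats were separate animals, so the p-values measure the spread between rats of a group. Rats of a group shared their exposure run, and cages were not in the model. Spread between repeated exposures at a dose was therefore not measured. In set 180, 6 of the 10 members were called higher and 0 lower, against 12% and 10.9% of all genes. In set 090 it was 5 higher and 0 lower (6.82% and 4.28% of all genes), in set 045 2 and 0 (3.32% and 2.09%) and in set 022 4 and 0 (5.18% and 1.62%). In set 011 edgeR called 0 members, and 0 had an unadjusted p under 0.05. Of all genes 0.025% were called higher and 0% lower there, and DESeq2 also called 0 members. With set 022 fitted alone, its 4 calls were all lost (Relb, Nfkb2, Birc3 and Tnfaip2, adjusted p = 0.26, 0.117, 0.0976 and 0.0501). With all air rats as a single control, calls were gained for Nfkbiz in sets 090 (0.25, adjusted p = 0.0393) and 022 (0.35, adjusted p = 4.4e-04) and for Birc3 (0.30, adjusted p = 0.0072) and Nfkb2 (0.13, adjusted p = 0.0491) in set 045. The members' median log2 fold change was 0.34, 0.38, 0.14, 0.22 and -0.01 in sets 180, 090, 045, 022 and 011, where the medians over all genes ran from -0.01 to 0.01.

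**Figure D1:**
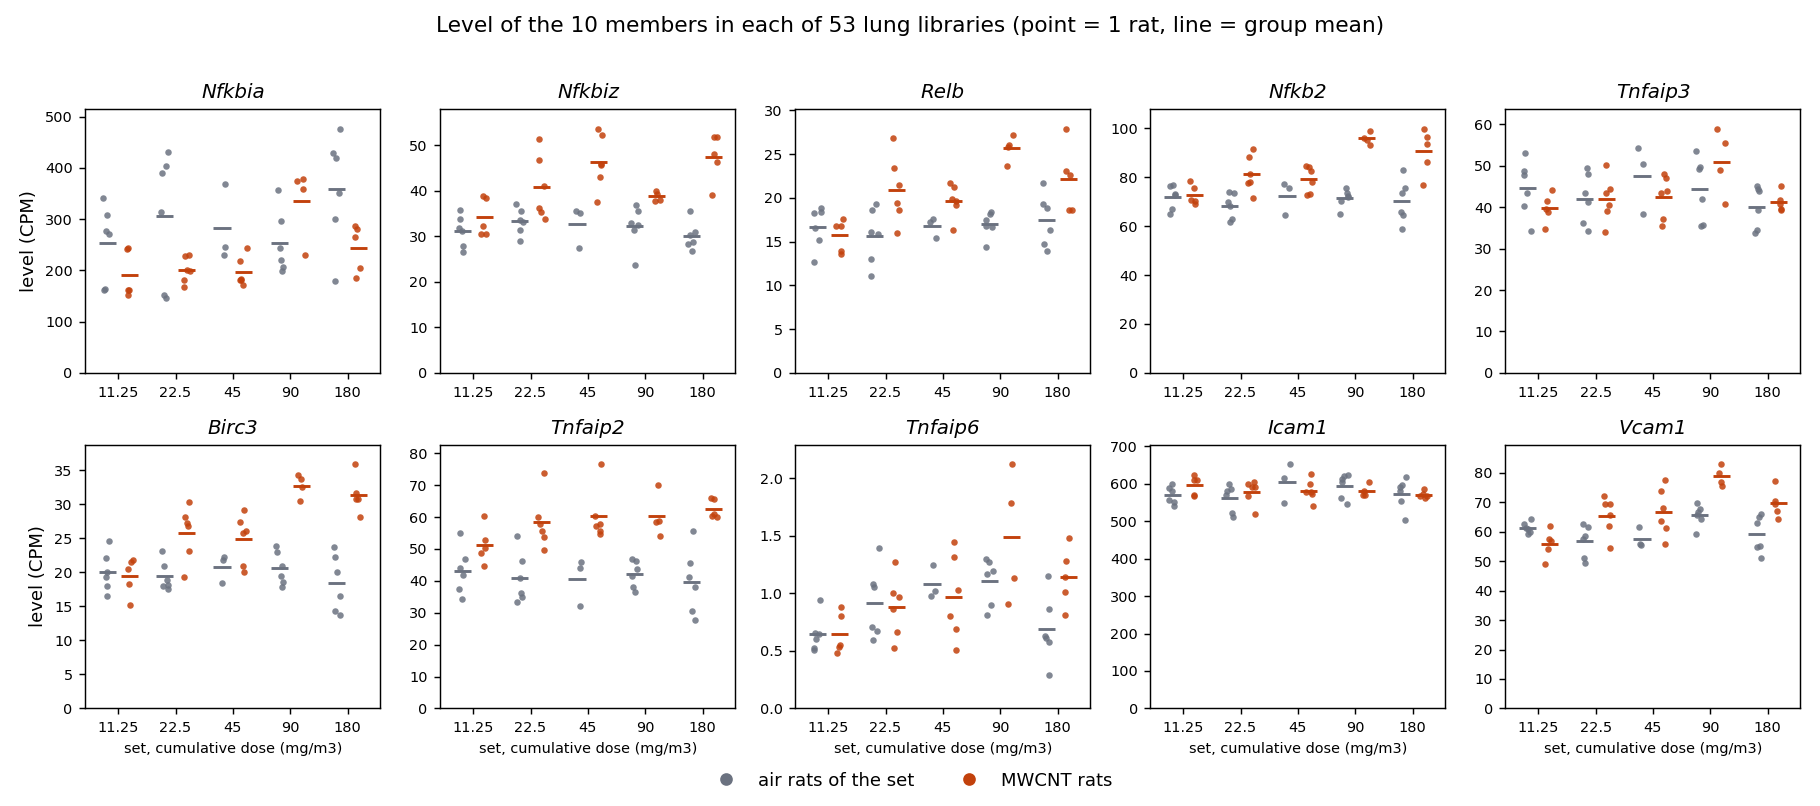
Level of each member in CPM (vertical axis, from 0) in the 53 libraries, by set (horizontal axis, cumulative dose in mg/m3). Grey points are air rats, orange points MWCNT rats and lines group means. Nfkbia spans 145.6 to 477 CPM with wide scatter within air groups, and Icam1 stays between 503 and 653 CPM throughout.

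Nfkbia encodes IkB-alpha, the inhibitor whose resynthesis ends a pulse of canonical signalling. In set 180 its level was 281, 264, 286, 205 and 186 CPM in the 5 exposed rats, and in the 6 air rats it ran from 180 to 477 CPM with a median of 385. All 5 exposed rats lay below the air mean, but the groups overlapped, with air replicate 6 the lowest of all 11 rats. The log2 fold change was -0.56 ± 0.24 SE and was not called (adjusted p = 0.090). Without that air library it was -0.70 with an adjusted p of 0.0266. In set 022 the exposed rats ran from 168 to 230 CPM (median 199) and the air rats from 145.6 to 431 CPM (median 353), a log2 fold change of -0.62 ± 0.23 (adjusted p = 0.10). Air replicates 5 and 6 of that set were the low ones, and leaving out either gave -0.77 (adjusted p = 0.0304) and -0.76 (adjusted p = 0.0311). DESeq2 called the set 022 fall (-0.63, adjusted p = 0.0495), and with all air rats as a single control Nfkbia was called lower in set 045 too (-0.59, adjusted p = 0.0252). In set 090 the value went the other way, 0.36 ± 0.25 (adjusted p = 0.44), with exposed levels of 374, 360, 230 and 378 CPM. The difference among the 5 sets was not called for Nfkbia (adjusted p = 0.29).

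By its biological coefficient of variation Nfkbia was the most variable member between rats of a group. That value was 0.273, at the 94.5th percentile of all genes tested, and the highest air_022 rat had 2.96 times the level of the lowest. The low-count Tnfaip6 had a wider range, 4.004-fold in air_180. The 2 genes whose deviations from their own set's air mean followed it most closely over the 53 libraries were Ddit4, an inhibitor of the growth kinase mTORC1 (Pearson r = 0.97), and the transcription factor Cebpd (r = 0.91). Of the other members the closest was Tnfaip3 (r = 0.36). These correlations are descriptions over libraries that share sets and treatments. Ddit4 spread like Nfkbia, from 21.8 to 111.1 CPM in the air_022 rats and from 29.6 to 117 CPM in the air_180 rats. In set 180 Ddit4 fell by 1.13 ± 0.40 on the log2 scale (edgeR adjusted p = 0.034).

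Nfkbiz encodes IkB-zeta, an inducible nuclear IkB protein that helps NF-kB switch on a second wave of genes. In set 180 the 5 exposed rats had 48, 46.4, 39.2, 51.9 and 51.8 CPM, and the air rats ran from 26.9 to 35.6 CPM with a median of 29.6. The groups did not overlap, and the rise was 1.56-fold (log2 fold change 0.64 ± 0.10, adjusted p = 2.6e-06). Nfkbiz rose in set 045 too, from 35.1, 35.5 and 27.5 CPM in the 3 air rats to between 37.6 and 53.6 CPM (median 45.8), or 0.47 ± 0.12 (adjusted p = 0.011). The set 045 call was lost without air replicate 4 (0.36, adjusted p = 0.177). Its values were 0.24 ± 0.11 in set 090 (adjusted p = 0.17, the 4 exposed rats at 37.9, 40, 39.4 and 37.9 CPM all above the highest air rat at 36.9), 0.28 ± 0.10 in set 022 (adjusted p = 0.068) and 0.14 ± 0.10 in set 011. In set 022 leaving out air replicate 2 or exposed replicate 1 or 3 made the call (adjusted p = 0.0469, 0.0333 and 0.0422). The genes that followed Nfkbiz most closely were the neutrophil chemokines Cxcl1 (r = 0.86) and Cxcl2 (r = 0.84). Within the same libraries the ratio of Nfkbiz to Nfkbia shifted upward in set 180 by 1.16 on the log2 scale (5 of 5 exposed rats above the air mean, exact permutation test, two-sided, adjusted p = 0.0286 over 15 ratio tests). It shifted by 0.997 in set 045 (6 of 6, exact permutation test, adjusted p = 0.0298). With 1 of the 3 air rats left out it was 1.18, 1.15 or 0.67. Each time the exact p was 0.0357, the smallest that 2 air rats against 6 allow, so these fits say nothing of its stability. It was 0.76 in set 022 (6 of 6, exact adjusted p = 0.0731), 0.51 in set 011 (3 of 5, exact adjusted p = 0.185) and -0.12 in set 090 (1 of 4, exact adjusted p = 0.679). In set 022 the ratio was called without air replicate 5 (0.95, exact adjusted p = 0.0238) or 6 (0.90, exact adjusted p = 0.0464).

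Relb and Nfkb2 encode the noncanonical subunits RelB and p100, the precursor of p52. Relb was 27.9, 22.7, 23.1, 18.7 and 18.7 CPM in the exposed rats of set 180 and 13.9 to 21.7 CPM (median 17.6) in air, and the groups overlapped. Its rise of 0.33 ± 0.12 was near the threshold (adjusted p = 0.045), and 6 of the 11 fits that left out 1 rat lost it: air replicates 4, 5 and 6 and exposed replicates 2, 3 and 4 (adjusted p = 0.0772 to 0.211). It was also lost with no filter (adjusted p = 0.0644), with limma voom (adjusted p = 0.0636) and with the set fitted alone (adjusted p = 0.0699). In set 090 Relb was 23.6, 25.8, 26 and 27.2 CPM against 14.4 to 18.4 CPM (median 17.1), with no overlap, a rise of 0.56 ± 0.13 (adjusted p = 0.0015). In set 022 it rose by 0.42 ± 0.12 (adjusted p = 0.019), with 16 to 26.8 CPM in exposed and 11.1 to 19.3 CPM in air rats. That call was lost without air replicate 5 or 6 or exposed replicate 6 (adjusted p = 0.0861, 0.0696 and 0.101). Relb was not called in set 045 (0.20 ± 0.14, adjusted p = 0.52) or set 011 (-0.07 ± 0.12).

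Nfkb2 was 99.8, 93.3, 96.5, 76.8 and 86 CPM in the exposed rats of set 180 and 58.7 to 83.1 CPM (median 69.6) in air, a rise of 0.36 ± 0.07 (adjusted p = 6.1e-05). Only the lowest exposed rat lay under the highest air rat. In set 090 it was 95.9, 95.3, 98.8 and 93 CPM against 64.9 to 75.5 CPM (median 72.1), with no overlap (0.39 ± 0.07, adjusted p = 8.8e-05). It rose in set 022 as well (0.24 ± 0.06, adjusted p = 0.013), from a median of 68.9 to 79.7 CPM, and the call was lost without air replicate 5 or 6 or exposed replicate 1 (adjusted p = 0.0529, 0.0513 and 0.0505). In set 045 the value was 0.10 ± 0.08 (adjusted p = 0.59). Outside the members, Relb was followed most closely by Sfn (r = 0.81) and Tjp3 (r = 0.76). The closest to Nfkb2 were Sec61a1 (r = 0.84) and Troap (r = 0.83). Relb and Nfkb2 were each other's closest member (r = 0.89 over the 53 libraries). Their ratio within a library was called in set 090, where Relb gained 0.17 on Nfkb2 (4 of 4 exposed rats, exact permutation test, adjusted p = 0.0286), a call lost without exposed replicate 2, 3 or 4 (exact adjusted p = 0.0595 each). In set 022 the shift was 0.18 (5 of 6 exposed rats, exact adjusted p = 0.20), and whether the sets differed was not tested for this ratio.

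Tnfaip3 encodes A20, the ubiquitin-editing enzyme that shuts off signalling from TNF and Toll-like receptors. It was 41.6, 39.6, 39.3, 40.7 and 45 CPM in the exposed rats of set 180 and 33.7 to 45.2 CPM (median 41.6) in air. The difference was 0.03 ± 0.11 (adjusted p = 0.90), with a 95% interval of 0.87- to 1.20-fold. In sets 090, 045, 022 and 011 the log2 fold changes were 0.17, -0.20, -0.01 and -0.16, none called. The genes that followed Tnfaip3 most closely were Vgll3 (r = 0.72) and Arhgap20 (r = 0.70).

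Birc3 encodes cIAP2, a ubiquitin ligase that works at the TNF receptor and protects cells from death. The exposed rats of set 180 had 35.9, 30.8, 30.8, 28.1 and 31.7 CPM, all above the air rats, which ran from 13.7 to 23.8 CPM with a median of 18.3. The rise was 1.69-fold (0.75 ± 0.12, adjusted p = 2.0e-06), the largest of the members in this set, though the gap to the next 3 (Tnfaip6, Tnfaip2 and Nfkbiz) was within their errors. In set 090 Birc3 was 32.5, 34.3, 33.7 and 30.4 CPM against 17.8 to 23.9 CPM (median 20.2), again with no overlap (0.64 ± 0.12, adjusted p = 2.0e-04). It rose by 0.40 ± 0.11 in set 022 (adjusted p = 0.019), where 5 of 6 exposed rats lay above the air mean. The set 022 call was lost without air replicate 3, 5 or 6 or exposed replicate 5 or 6 (adjusted p = 0.0533 to 0.0795). The values were 0.23 ± 0.14 in set 045 (adjusted p = 0.40) and -0.04 ± 0.12 in set 011. Its closest genes were Irf8, a transcription factor of monocytes and dendritic cells (r = 0.86), and the sterol enzyme Msmo1 (r = 0.86), and its closest member was Nfkb2 (r = 0.85).

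Tnfaip2, a TNF-induced gene whose product takes part in membrane nanotube formation, was called in 4 sets, more than any other member. In set 180 the exposed rats had 59.9, 61.1, 65.6, 66.1 and 60.4 CPM and the air rats 27.6 to 55.7 CPM (median 39.5), with no overlap (0.65 ± 0.13, adjusted p = 1.6e-04). The air rats of set 180 varied 2.02-fold and the exposed rats 1.10-fold. It rose by 0.49 ± 0.14 in set 090 (adjusted p = 0.012), by 0.54 ± 0.15 in set 045 (adjusted p = 0.026) and by 0.50 ± 0.12 in set 022 (adjusted p = 0.0061). The exposed and air rats did not overlap in sets 090 and 045. The set 090 call was lost without exposed replicate 3 (0.40, adjusted p = 0.085), and the set 045 call without air replicate 2 or 4 or exposed replicate 5 (adjusted p = 0.0604, 0.265 and 0.0811). In set 011 all 5 exposed rats lay above the air mean and the log2 fold change was 0.25 ± 0.13, not called. Its closest genes were Zc3h12a (r = 0.85), the RNase Regnase-1 that degrades inflammatory mRNAs, and B3gnt7 (r = 0.84).

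Tnfaip6 encodes TSG-6, a secreted protein that binds hyaluronan. Its counts were only 3 to 32 per library, so its level is imprecise. In set 180 it was 1.48, 1.28, 1.14, 0.811 and 1.01 CPM in exposed rats and 0.286 to 1.15 CPM (median 0.618) in air. The groups overlapped and the difference of 0.69 ± 0.28 was not called (adjusted p = 0.075), but without air replicate 1 it was 0.90 with an adjusted p of 0.0264. In the other sets the log2 fold changes ran from -0.21 in set 045 to 0.41 in set 090, none called. Air means ran from 0.646 CPM in air_011 to 1.11 CPM in air_090, a difference among air groups that was not called (edgeR adjusted p = 0.13). With all air rats as a single control, Tnfaip6 was called in set 090 (0.75, adjusted p = 0.0179). Its closest genes outside the members were Cxcl10 (r = 0.63) and Cks1b (r = 0.59).

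Icam1 and Vcam1 encode the adhesion molecules that bind leukocyte integrins. Icam1 had 572, 585, 567, 568 and 562 CPM in the exposed rats of set 180 and 503 to 617 CPM (median 586) in air. The log2 fold change was -0.02 ± 0.05 (adjusted p = 0.86), with a 95% interval of 0.93- to 1.06-fold. Its 5 log2 fold changes ran from -0.09 to 0.07. Its biological coefficient of variation of 0.054, at the 15.6th percentile of all genes, was the lowest of the members. The genes closest to Icam1 were Bmp4 (r = 0.72) and Ephb3 (r = 0.68).

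Vcam1 was 77.2, 70.4, 69.5, 64.3 and 67 CPM in the exposed rats of set 180 and 51.2 to 66 CPM (median 59.1) in air, a 1.17-fold rise (0.22 ± 0.07, adjusted p = 0.014). The groups overlapped slightly, and the call was lost without air replicate 4 or exposed replicate 2 (adjusted p = 0.0562 and 0.075). In set 090 it was 83, 76.7, 79.9 and 75.4 CPM against 59.1 to 69.6 CPM (median 66.3), with no overlap (0.23 ± 0.07, adjusted p = 0.031), a call lost without air replicate 4 or 6 or exposed replicate 1 or 3 (adjusted p = 0.0531 to 0.092). It was lost too when the outlier-labelled libraries without a liver profile were kept (adjusted p = 0.0679). In set 022 the value was 0.19 ± 0.07 (adjusted p = 0.070), called without air replicate 2 (adjusted p = 0.0449) or exposed replicate 5 (adjusted p = 0.0376). It was 0.18 ± 0.08 in set 045 (adjusted p = 0.22) and -0.13 ± 0.07 in set 011.

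The ratio of Icam1 to Vcam1 within a library needs no scaling between libraries. It was lower in exposed rats by 0.24 on the log2 scale in set 180 (0 of 5 exposed rats above the air mean, exact permutation test, two-sided, adjusted p = 0.0162) and by 0.30 in set 090 (0 of 4, exact adjusted p = 0.0286). In set 011 it was higher by 0.20 (5 of 5, exact permutation test, adjusted p = 0.0162), the opposite direction. With all 60 libraries, which add MWCNT_011 replicate 2 to this set, it was 0.14 and not called (exact adjusted p = 0.343). The differences were -0.26 in set 045 (exact adjusted p = 0.0731) and -0.16 in set 022 (exact adjusted p = 0.185). Leaving out exposed replicate 1 gave -0.26 in set 090 (exact adjusted p = 0.0595), and leaving out exposed replicate 6 gave -0.30 in set 045 (exact adjusted p = 0.0383).

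**Figure D2:**
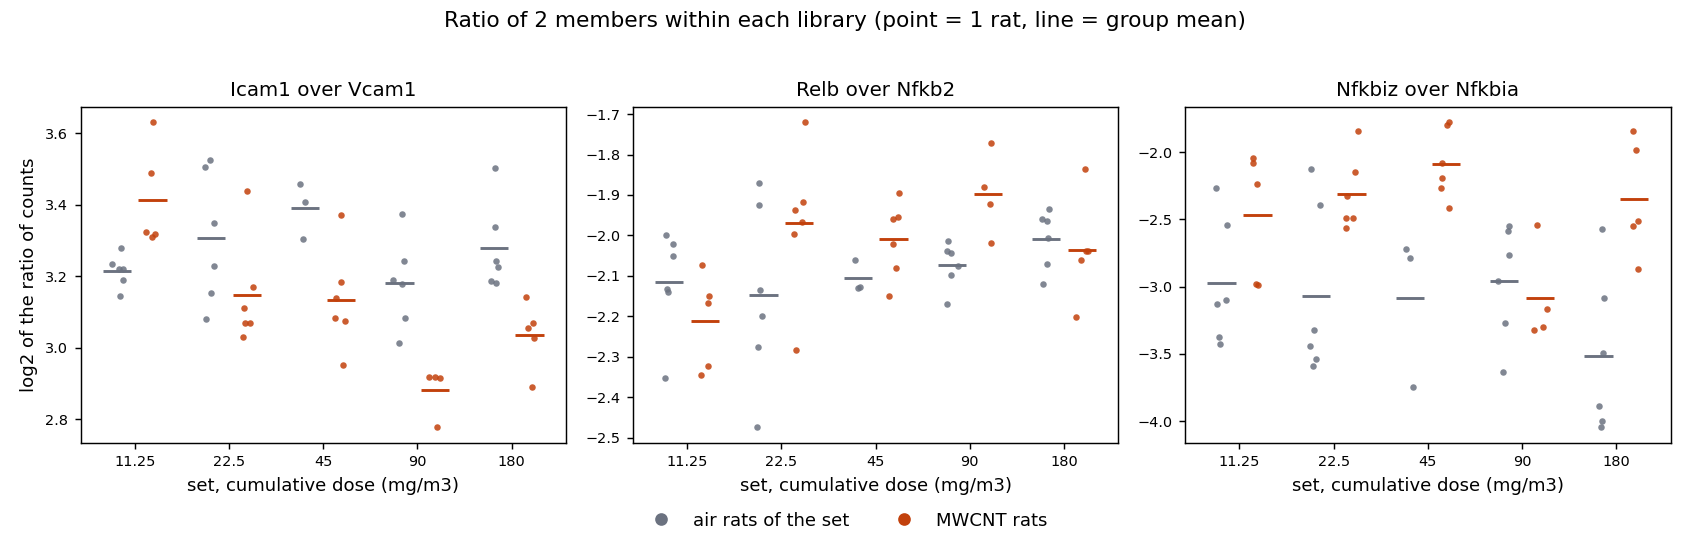
Log2 ratio of the counts of 2 members within each library (vertical axis) by set (horizontal axis, cumulative dose in mg/m3). Grey points are air rats, orange points MWCNT rats and lines group means. Icam1 over Vcam1 lies below air in all 5 exposed rats of set 180 and above the air mean in all 5 of set 011, and Nfkbiz over Nfkbia lies above the air mean in all 5 exposed rats of set 180.

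Counting members whose exposed rats all lay above every air rat of their set gave 3 in set 180 (Nfkbiz, Birc3 and Tnfaip2), where 7.8% of all genes did so. There were 6 in set 090 (Nfkbiz, Relb, Nfkb2, Birc3, Tnfaip2 and Vcam1, with 8.82% of all genes) and 2 in set 045 (Nfkbiz and Tnfaip2, with 9.23%). Sets 022 and 011 had 0 such members, against 2.15% and 0.35% of all genes. Group sizes differ between sets, so these shares are not comparable across them.

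A slope of the MWCNT effect on log2 dose was fitted over the 5 sets, so over doses and runs at once. It is an average trend and not a test of a rise at every doubling. The slope was called as positive for 4 members, against 5.58% of all genes called with an increase and 5.07% with a decrease. These were Birc3 (0.18 ± 0.04 per doubling, adjusted p = 6.3e-04), Nfkb2 (0.08 ± 0.02, adjusted p = 0.0097), Vcam1 (0.07 ± 0.02, adjusted p = 0.022) and Nfkbiz (0.10 ± 0.03, adjusted p = 0.047). The Nfkbiz slope was lost in 29 of the 53 fits that left out 1 rat, with adjusted p from 0.0236 to 0.0862 over all of them, and with no filter (adjusted p = 0.0756) or limma voom (adjusted p = 0.0522). The Vcam1 slope was not called on a linear dose scale (adjusted p = 0.132) or with the outlier-labelled libraries without a liver profile kept (adjusted p = 0.0699). Tested for unequal effects in the 5 sets, 2 members were called, Birc3 (adjusted p = 0.0078) and Nfkb2 (adjusted p = 0.041), where 4.92% of all genes were called. The Nfkb2 difference was lost in 17 of 53 fits without 1 rat (adjusted p from 0.0104 to 0.0693) and with no filter (adjusted p = 0.0583), and that of Vcam1 (adjusted p = 0.062) was called in 9 of 53. For the step from set 011 to set 022, edgeR called 0 members and 0.781% of all genes, and 4 members had an unadjusted p under 0.05. The other 3 steps also had 0 called members and 0 called genes. No member differed among the 5 air groups at the threshold (7.11% of all genes did, and 2 members had an unadjusted p under 0.05), so no baseline shift between runs was called for any member.

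**Figure D3:**
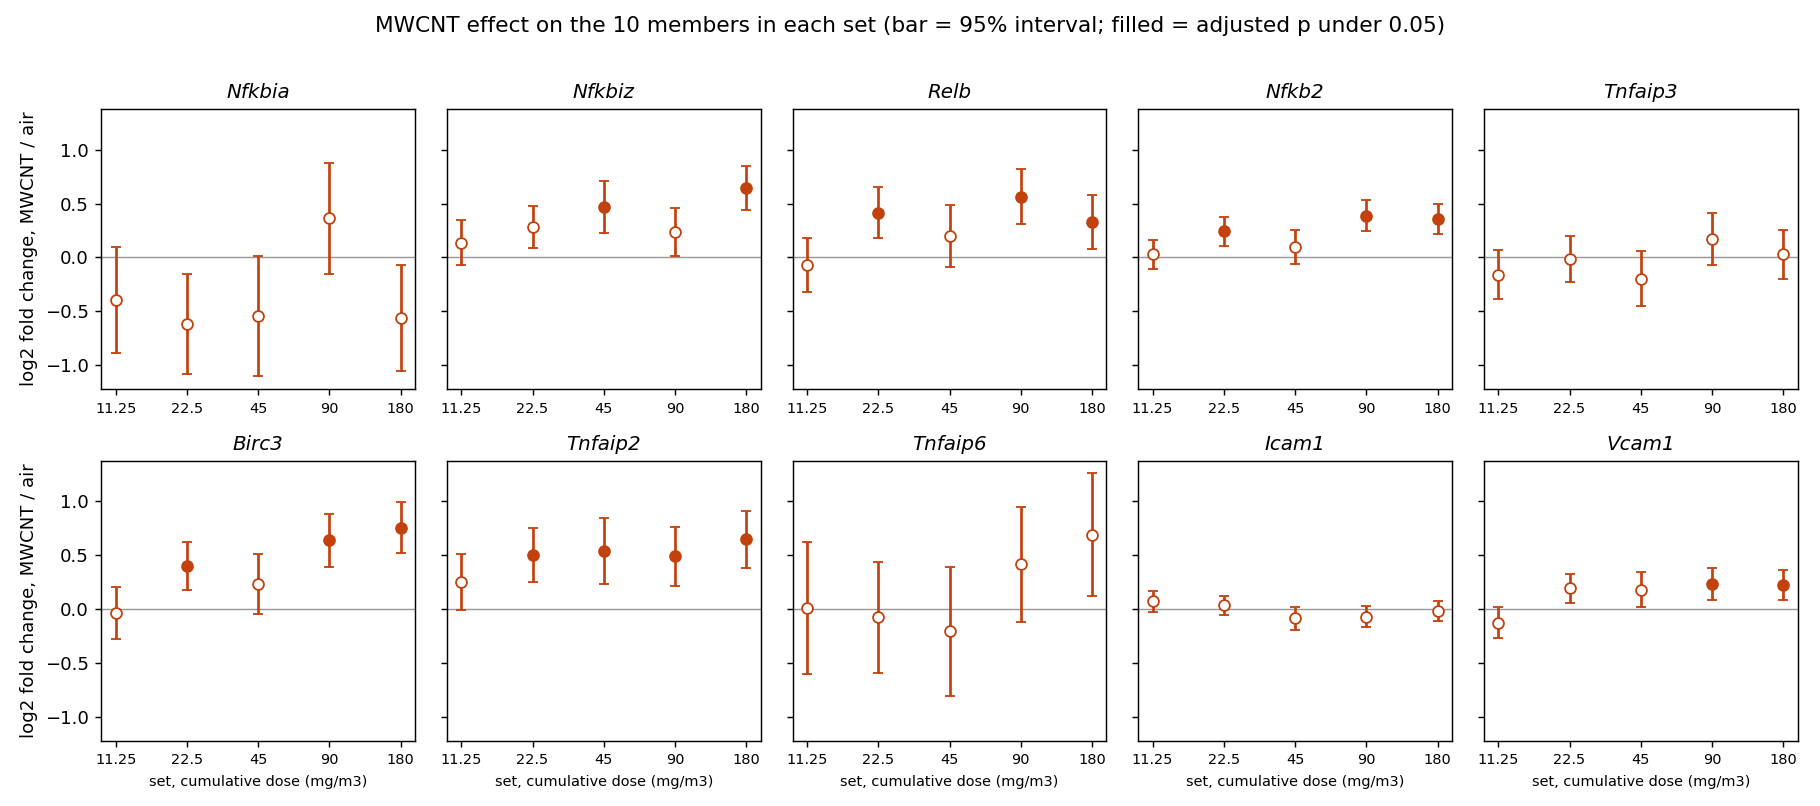
Log2 fold change of MWCNT against air (vertical axis) for each member by set (horizontal axis, cumulative dose in mg/m3), with 95% intervals. Filled points passed the test. Birc3 goes from -0.04 in set 011 to 0.75 in set 180, Tnfaip2 is filled in 4 sets, and Icam1 stays near 0 in all 5.

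The rest of the pathway was described with lists of named genes, chosen with earlier results of these data known. The shares called among them are descriptions and not a test of the pathway. Of 98 tested genes of 6 NF-kB lists, 37 were called higher and 2 lower in set 180 (12% and 10.9% of all genes), with a median log2 fold change of 0.17 against -0.01 over all genes. The counts were 19 and 0 in set 090 (6.82% and 4.28% of all genes), 10 and 1 in set 045 (3.32% and 2.09%), 13 and 0 in set 022 (5.18% and 1.62%) and 0 and 0 in set 011 (0.025% and 0%). Among the other subunits and IkB proteins 5 of 7 were called higher in set 180. They were led by the nuclear IkB protein Bcl3, from 17.9 ± 3.77 CPM (SD, n = 6) to 34.4 ± 4.01 (n = 5), or 0.93 ± 0.12 (adjusted p = 4.4e-08), with Nfkbid (0.71 ± 0.11), Nfkbie (0.56 ± 0.08), Rel (0.55 ± 0.18) and Nfkb1 (0.14 ± 0.05). Rela, the main activating subunit, was -0.07 ± 0.04 in set 180 (adjusted p = 0.26) and fell in set 045 (-0.20 ± 0.05, adjusted p = 0.0087), the 1 gene of these lists called lower there.

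Among receptors 7 of 18 were called higher and 1 lower in set 180. Tnfrsf11a, the receptor RANK, rose by 0.90 ± 0.08, Tnfrsf12a by 0.81 ± 0.15 and Tlr2 by 0.54 ± 0.09, while Ager, a receptor abundant on alveolar type 1 cells, fell by 0.25 ± 0.08. Of 9 tested ligands 2 were higher, Il1b (1.01 ± 0.16) and Il1a (0.30 ± 0.11), and 1 was lower, Tnfsf12 (-0.19 ± 0.07). Tnf was removed by the filter on low counts. Of 25 adaptors and kinases 7 were higher and 0 lower, led by Malt1 (0.54 ± 0.09), Card9 (0.52 ± 0.11) and Ticam1 (0.37 ± 0.07). Of 13 brakes other than the members only Zc3h12a (1.09 ± 0.11) and the deubiquitinase Cyld (0.21 ± 0.05) were called higher, a share near the 12% of all genes, and Tnip1, a partner of A20, was 0.05 ± 0.04 (adjusted p = 0.41). Of 26 other target genes 14 were higher and 0 lower, with a median of 0.58. The monocyte chemokine Ccl2 rose by 3.51 ± 0.25, the iron-binding protein Lcn2 by 2.57 ± 0.23 and Cxcl1 by 1.94 ± 0.22, all above the members' largest value of 0.75.

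**Figure D4:**
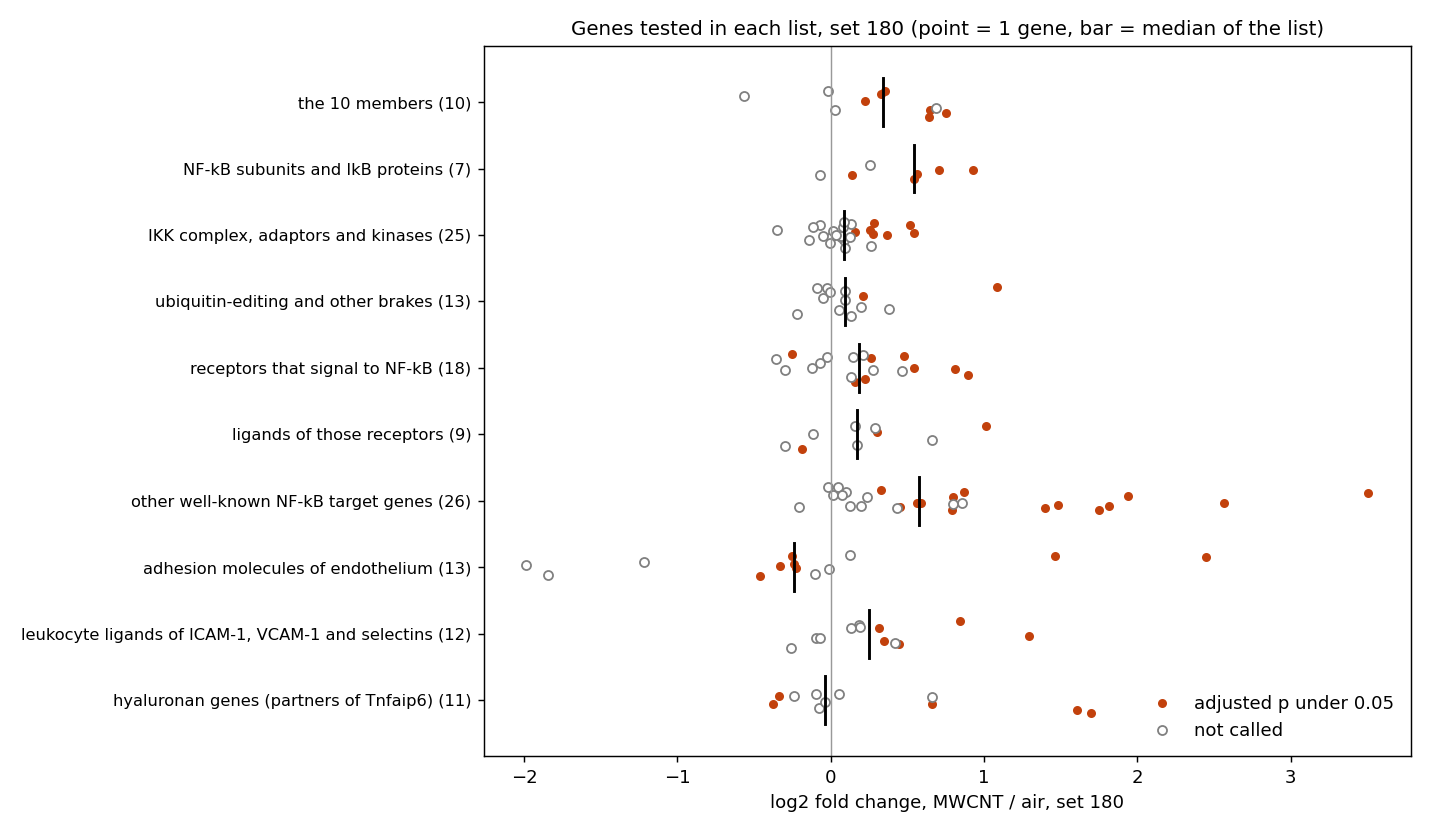
Log2 fold change of MWCNT against air in set 180 (horizontal axis) for the tested genes of each list (rows, number of genes in brackets). Each point is 1 gene, filled where it passed the test, and bars are list medians. Other NF-kB targets reach 3.51, while the members lie between -0.56 and 0.75.

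Of 13 tested adhesion molecules of endothelium, not counting Icam1 and Vcam1, 2 were called higher and 5 lower in set 180, where 12% of all genes were higher and 10.9% lower. Those higher were the selectins that slow leukocytes on activated vessels. Sele went from 1.20 to 6.69 CPM (2.45 ± 0.25, adjusted p = 6.7e-11) and Selp from 3.97 to 11.1 CPM (1.46 ± 0.18, adjusted p = 1.0e-08). Outside the members, the 2 genes that followed Vcam1 most closely were Slc7a11 (r = 0.73), which is not on this list, and Selp (r = 0.72). The falls included Cd34 (-0.46 ± 0.07), Icam2 (-0.33 ± 0.08) and Pecam1 (-0.23 ± 0.07). Of 12 leukocyte ligands of these molecules 5 were higher and 0 lower, led by Itgam (1.30 ± 0.12), Itgax (0.85 ± 0.10) and Itgb7 (0.45 ± 0.11). Others of this list were not called, among them Itgal (-0.26 ± 0.11, adjusted p = 0.088), Itgb2 (0.19 ± 0.09, adjusted p = 0.14) and Itga4 (0.42 ± 0.19, adjusted p = 0.11). Of 11 tested genes of a hyaluronan list, 3 were higher (Itih1 1.70 ± 0.28, Hmmr 1.61 ± 0.17 and Vcan 0.66 ± 0.16). Called lower were 2, Hyal2 (-0.37 ± 0.14) and Lyve1 (-0.34 ± 0.13).

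Markers of some cell types, not of all, moved in the same comparison. In a piece of tissue, fewer cells of a type and less RNA per cell cannot be told apart. Of all genes, 12% were called higher and 10.9% lower in set 180. In set 180 the summed level of 10 endothelial markers was 4686 to 5312 CPM in air and 4139 to 4514 CPM in exposed rats, with 7 of 10 genes called lower. The 10 neutrophil markers summed to 155 to 242 CPM in air and 260 to 346 CPM in exposed rats, with 5 of the 8 tested called higher and 1 lower. The 6 monocyte markers in the table summed to 442 to 495 and 540 to 638 CPM, with 5 called higher, and the 7 dendritic cell markers to 96 to 118 and 123 to 139 CPM, with 4 called higher. The 8 alveolar macrophage markers summed to 830 to 1116 and 1142 to 1194 CPM, with 1 of the 7 tested called higher and 3 lower, and Marco was at 0 in all air_180 libraries. No defining gene of the endothelial, neutrophil, monocyte and dendritic cell lists was at 0 throughout either group. Of the 8 epithelial markers 3 were called higher and 1 lower, and their sum was 18467 to 22295 CPM in air and 18356 to 20116 CPM in exposed rats. Of the 8 T cell markers 0 were called higher and 1 lower. Of the 6 B cell, 5 tested fibroblast and 4 mesothelium markers, 0 were called in either direction. The fibroblast gene Col1a2 was at 0 in all air_180 libraries. In set 090 the endothelial sum was 4948 to 5531 CPM in air and 4558 to 4980 CPM in exposed rats (3 of 10 lower), the neutrophil sum 138 to 233 and 228 to 256 CPM (4 of 8 higher, 1 lower) and the monocyte sum 438 to 471 and 530 to 567 CPM (5 of 6 higher). In set 022 the neutrophil sum was 147.8 to 216 and 193 to 307 CPM (2 of 8 higher), the monocyte sum 414 to 462 and 451 to 496 CPM (3 of 6 higher), and 2 endothelial markers were lower. In set 045, 3 of 10 endothelial markers were lower, and 1 of 8 neutrophil and 2 of 6 monocyte markers higher. Of all genes, 6.82% were higher and 4.28% lower in set 090, 5.18% and 1.62% in set 022 and 3.32% and 2.09% in set 045. A list with 1 called gene is too small a count to set against such shares. In set 011 no gene of the endothelial, neutrophil, monocyte or dendritic cell lists was called, against 0.025% of all genes higher and 0% lower. The part of these shifts in the members' values was not tested.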

How the data were processed

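Lung RNA of separate rats was sequenced from stranded mRNA libraries. The authors deposited raw counts per gene symbol for 60 libraries. The submitters' processing notes name HISAT2 2.1.0 and HTSeq 0.11.2, among other tools. The genome build behind the counts was not given in the sources used here, nor were its annotation and strand setting. Reads had no molecular identifiers, so counting error is a lower limit.

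Samples were grouped by the labelled set and treatment. Counts were fitted in R 4.3.3 with edgeR 4.0.16 (TMM, filterByExpr with a minimum count of 10, robust quasi-likelihood, 1 model of 10 groups). SE was the log2 fold change divided by the square root of F. Likeness was Pearson's r of log2 CPM (prior count 2) less the own air mean, over genes of at least 1 CPM. The method was tested on simulated data.

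The members and lists were chosen with earlier results of these data known. Named genes were all members, up to 3 rises and 2 falls per list in set 180, 13 fixed genes and 2 like genes per member. Alternatives included limma 3.58.1 voom and DESeq2 1.42.0. No pair of the 119 within-group library pairs was a duplicate (lowest chi-square per degree of freedom 2.50).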

Additional observations from a re-analysis of the deposited data

Results flagged for a closer look

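Within groups of 4 to 10 rats, 3 of the 90 combinations of member and group tested had a rat far from the others, and chance flags about 1 in 20. Nfkbia was 230 CPM in MWCNT_090 replicate 3, where the other 3 rats had 360 to 378 CPM. Tnfaip2 was 76.6 CPM in MWCNT_045 replicate 5, where the other 5 had 54.8 to 60.4 CPM. Tnfaip6 was 0.944 CPM in air_011 replicate 6, where the other 5 had 0.507 to 0.656 CPM.

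The MWCNT effect differed among the 5 sets for Birc3 (edgeR adjusted p = 0.00777), from a log2 fold change of -0.04 in set 011 to 0.75 in set 180, and for Nfkb2 (edgeR adjusted p = 0.0407), from 0.03 in set 011 to 0.39 in set 090. Nfkb2 lost this call in 17 of the 53 fits that left out 1 rat. Dose and run cannot be told apart in either.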

How the results depend on the processing

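With all 60 libraries, 3 of them with a liver profile, members called higher were 2, 1, 1 and 0 in sets 180, 090, 045 and 022, 0 for the dose slope and 0 for the difference among sets, with 1 for the step from set 045 to 090. NF-kB list genes called higher in set 180 then numbered 16 (against 37) and adhesion list genes 4 (against 10). Single values that turned sign there were Nfkbia -0.0754, Tnfaip3 -0.24 and Vcam1 -0.25 in set 090 and Tnfaip3 0.19 and Icam1 0.19 in set 045. Ratio differences became 0.18 (Icam1 to Vcam1), -0.10 (Relb to Nfkb2) and 0.53 (Nfkbiz to Nfkbia) in set 090, 0.14 (Icam1 to Vcam1) in set 011 and 0.41 (Nfkbiz to Nfkbia) in set 045, none of them called. With all air libraries as a single control, 4 members were higher and 1 lower in set 045 and 1 lower in set 022, and signs turned for Tnfaip3 in set 180 (-0.0803), Tnfaip6 in sets 045 (0.10), 022 (0.0086) and 011 (-0.41) and Icam1 in set 022 (-0.0083). Set 022 fitted alone called 0 members, DESeq2 called 1 lower there (Nfkbia), and no filter left 1 member for the difference among sets. The cause of these shifts was not tested.

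Leaving out 1 rat at a time gave 4 to 7 members higher in set 180, 3 to 5 in set 090, 0 to 2 in set 045, 1 to 6 in set 022, 0 to 1 lower in sets 180 and 022, and 1 to 3 that differed among sets. The fewest in set 045 came without air replicate 4, and in set 022 without air replicate 5 or 6. Ratio differences ran from -0.33 to -0.26 (Icam1 to Vcam1, set 090), -0.30 to -0.22 (the same, set 045), 0.13 to 0.22 (Relb to Nfkb2, set 090), -0.0758 to 0.0158 (the same, set 180), 0.67 to 1.18 (Nfkbiz to Nfkbia, set 045) and 0.66 to 0.95 (the same, set 022). Small effects crossed 0: Birc3 in set 011 (-0.0941 to 0.026), Icam1 in set 180 (-0.0538 to 0.0032), Nfkb2 in set 011 (-0.0058 to 0.0417), Tnfaip3 in sets 022 (-0.0704 to 0.0344) and 180 (-0.0185 to 0.0671), and Tnfaip6 in sets 011 (-0.11 to 0.15) and 022 (-0.22 to 0.073). No paired analysis was possible because the labels carry no replicate number shared between groups. With library totals alone the median over all genes was at most 0.0286. With 3 to 32 counts, Tnfaip6 is limited by depth.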

Other observations

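The 4 outlier-labelled libraries without a liver profile were kept out of the main comparisons. MWCNT_180 replicate 1 had 43.4 CPM of Birc3 and 106 CPM of Nfkb2, both above the other exposed rats of set 180, and 591 CPM of Icam1. MWCNT_011 replicate 2 had 33.9 CPM of Tnfaip2 and 72.9 CPM of Vcam1, below and above the other exposed rats of set 011. Among the air_045 libraries, replicate 3 had 27.5 CPM of Relb, above the 3 used, and replicate 6 had 139 CPM of Nfkbia, below them. In the 3 liver-profile libraries Icam1 was 46.1 to 70.4 CPM and Tnfaip2 18.1 to 53 CPM.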
